A study of Mus musculus with 12 samples.

Results

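The genes described here are the CXC chemokine genes Cxcl1, Cxcl2, Cxcl5, Cxcl9, Cxcl10, Cxcl12, Cxcl14 and Cxcl16 and the chemokine receptor gene Cxcr4, 9 genes in all, in microglia of the mouse cortex. A region belonged to the set when the deposited tag table named one of these genes as its nearest gene, which held for 46 of 104981 regions of 500 bp. These 46 regions fell to 8 genes: 14 to Cxcl12, 9 to Cxcr4, 6 to Cxcl16, 5 each to Cxcl1 and Cxcl2, 3 each to Cxcl5 and Cxcl10 and 1 to Cxcl14. No region was assigned to Cxcl9. The median gene with a region in the table had 3.

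Histone H3 acetylated at lysine 27 (H3K27ac), a mark of active promoters and enhancers, was measured by chromatin immunoprecipitation and sequencing (ChIP-seq) in 8 libraries, 1 per mouse, of 4 males (numbered 1, 2, 5 and 6) and 4 females (numbered 3, 4, 7 and 8). All were at postnatal day 30 and had received interleukin-33 (IL-33), an alarmin cytokine, or vehicle in a brain ventricle of 1 side 4 h before they were killed, and microglia were purified on Percoll and by flow sorting. The labels state sex but not strain, genotype or which mouse received IL-33, so IL-33 effects come from the authors' deposited table alone. That table covers regions at least 3001 bp from a transcription start site (TSS), besides 16 without one, and it therefore holds no promoter of these genes.

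CXC chemokines are small secreted proteins named for a pair of cysteines set apart by a single residue, and they steer leukocytes through G protein-coupled receptors. CXCL1, CXCL2 and CXCL5 attract neutrophils through CXCR2, whereas CXCL9 and CXCL10 are induced by interferons and attract T cells through CXCR3. CXCL16 is made as a membrane-bound protein that also takes up oxidised lipoprotein and, once shed, acts on CXCR6. CXCL12 acts on CXCR4 and on the scavenging receptor ACKR3, and in the brain it is known from blood vessels, meninges and neurons more than from microglia. CXCL14 is expressed by neurons and epithelia.

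Library totals ranged from 5160915 to 10019606 tags in male and from 2155209 to 4133042 tags in female mice, and levels are given as tags per 10000000 tags of the library. The promoters of all 6 microglial marker genes carried signal, with summed levels of 2420 to 3110 tags in male and 2810 to 4230 in female libraries. Summed levels were at most 8.02 tags for astrocyte, 5.81 for neuron, 4.64 for monocyte or neutrophil and 14.5 for T or NK cell markers, but only 2 of 5, 2 of 5, 1 of 6 and 1 of 5 genes of these lists have a promoter region in the table, so the others were not measured. They were 198 to 384 tags for oligodendrocyte, 55.7 to 162 for endothelial and 48.1 to 102 for border macrophage markers. In bulk libraries, fewer cells carrying the mark and less of the mark per cell cannot be told apart.

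In the IL-33 comparison, distal regions of Cxcl16 rose together, distal regions of Cxcl12 fell and 1 region of Cxcl2 rose. Of the 46 regions, 27 are listed in the authors' deposited table and 18 have an adjusted p there. Of these 18, 6 rose and 3 fell at an adjusted p under 0.05 in the authors' deposited table, or 33.3% and 16.7%, where 10.2% of all 40352 regions with an adjusted p rose and 7.99% fell. The risen regions were 5 of 5 at Cxcl16 and 1 of 2 at Cxcl2, and the fallen ones 3 of 6 at Cxcl12. By gene, 2 of 6 tested genes had a rise and 1 had a fall in the authors' deposited table, where 19.4% and 20.9% of all 7838 tested nearest genes had one. By the authors' deposited table, the median change on the log2 scale was 0.00 over the 18 regions and -0.01 over all regions. Regions were tied to genes by distance alone, and no RNA was measured.

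**Figure D1:**
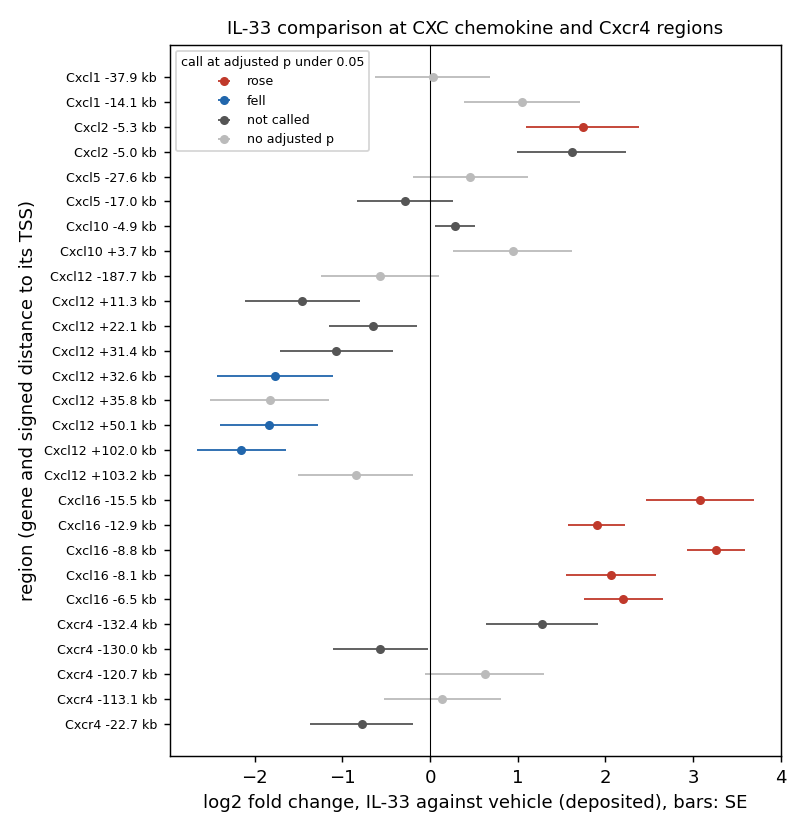
Log2 fold change of IL-33 against vehicle (x axis) with its SE (bars), from the authors' deposited table, for the 27 regions of these genes listed there, ordered by gene and distance to the TSS (y axis), coloured by call. The 5 Cxcl16 regions lie between 1.90 and 3.26, and the 3 fallen Cxcl12 regions between -2.15 and -1.77.

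Promoter windows of the inducible ligands carry the letters by which inflammatory transcription factors are known to bind, and they are shown because the promoter levels described next lie over those of Cxcl2 and Cxcl10 and beside that of Cxcl1. RefSeq promoter entries on build GRCm38.p6, from 250 bases before to 50 after the gene start, were found for 7 of the 9 genes, namely Cxcl1, Cxcl2, Cxcl9, Cxcl10, Cxcl12, Cxcl14 and Cxcr4. Each line below gives 30 bases, 5′ to 3′ on the gene's strand, with the motif match in capitals. The NF-kB pattern searched was GGG, any 5 bases and CC, the interferon response pattern GAAA, any 2 bases and GAAA, and the AP-1 pattern TGANTCA, each on both strands. Not every match is printed, and overlapping matches are shown once.
Cxcl1, NF-kB pattern, chr5:90891164-90891193, plus strand: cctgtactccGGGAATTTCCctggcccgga
Cxcl2, NF-kB pattern, chr5:90903792-90903821, plus strand: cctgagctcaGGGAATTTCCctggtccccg
Cxcl10, NF-kB pattern, chr5:92349029-92349058, minus strand: agaggggagaGGGAAATTCCaagttcatgg
Cxcl10, interferon response pattern, chr5:92349083-92349112, minus strand: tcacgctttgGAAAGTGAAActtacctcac
Cxcl10, AP-1 pattern, chr5:92348945-92348974, minus strand: cggagccttgcTGAGTCAtctccaaagtca

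The Cxcl1 and Cxcl2 windows hold the same 10 letters, GGGAATTTCC, which occur on either strand in 0.0883% of 32851 RefSeq promoter entries. The looser NF-kB pattern occurs in 50.8% of them, the AP-1 pattern in 7.81% and the interferon response pattern in 3.44%. The Cxcl10 entry holds all 3 patterns, as do 39 of the 32851 entries, or 0.119%. The exact 10 letters and this set of 3 patterns were chosen after the matches were seen, so their low shares are a description. The lines of Cxcl2 and Cxcl10 lie inside measured regions, whereas that of Cxcl1 ends at the edge of one, with its match outside. Of the other entries, that of Cxcl9 holds the NF-kB and AP-1 patterns, that of Cxcl12 the NF-kB pattern and that of Cxcl14 the interferon response pattern. The Cxcr4 entry holds none of these or of the STAT letters TTCNNNGAA (8.30% of entries) or the PU.1 letters GAGGAAGT (3.20%). The STAT letters occur in the Cxcl14 entry, and the PU.1 letters in none of the 7.

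At the transcription start site, Cxcl16 was the member with strong H3K27ac. Its region 175 bp into the gene, in the first exon of a non-coding transcript (chr11:70459559-70460059), held 341, 222, 64.0 and 58.1 tags in males 1, 2, 5 and 6 and 241, 416, 83.6 and 153 tags in females 3, 4, 7 and 8. Its mean of 197 tags stood at percentile 93.8 of the 22160 regions within 1000 bp of a TSS. In both sexes, mice 1 to 4 stood above mice 5 to 8, and male and female values overlapped.

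The Cxcl10 promoter region (chr5:92348701-92349201, 62 bp before the TSS) held 24.95, 24.1, 3.15 and 1.94 tags in males 1, 2, 5 and 6 and 8.80, 0, 25.1 and 4.64 in females 3, 4, 7 and 8, 63 reads in all. Mice 1, 2 and 7 were high, and the sexes overlapped. The nearer Cxcl2 promoter region (chr5:90903421-90903921, 228 bp before the TSS) held 4.99, 14.9, 0 and 0 tags in the male and 14.7, 16.9, 0 and 0 in the female mice in the same order, 30 reads in all. Reads were thus found in mice 1, 2, 3 and 4, and none in mice 5, 6, 7 and 8. A count of 0 allows up to 3 reads, which is 3.15 and 5.81 tags in mice 5 and 6 and 8.36 and 13.9 tags in mice 7 and 8.

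The other start sites were at the limit of detection. The Cxcl1 region 198 bp into the gene, in intron 1 of 3 (chr5:90891193-90891693), held 6 reads over the 8 libraries. The Cxcr4 promoter region (chr1:128592267-128592767) held 1 read, and the region over the first exon of Cxcl12 (chr6:117168423-117168923) none. Of the 7 regions within 1000 bp of a TSS, 2 held at most 3 reads in all libraries together, as did 3.96% of such regions of all genes. The order of mean levels was Cxcl16 (197 tags), Cxcl10 (11.6), Cxcl2 (6.44), Cxcl1 (1.35), Cxcr4 (0.131) and Cxcl12 (0). The libraries of Cxcl16, from 58.1 to 416 tags, lay above all those of Cxcl10, whereas each later neighbour overlapped the one before it. Cxcl5, Cxcl9 and Cxcl14 had no region within 1000 bp of a TSS.

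**Figure D2:**
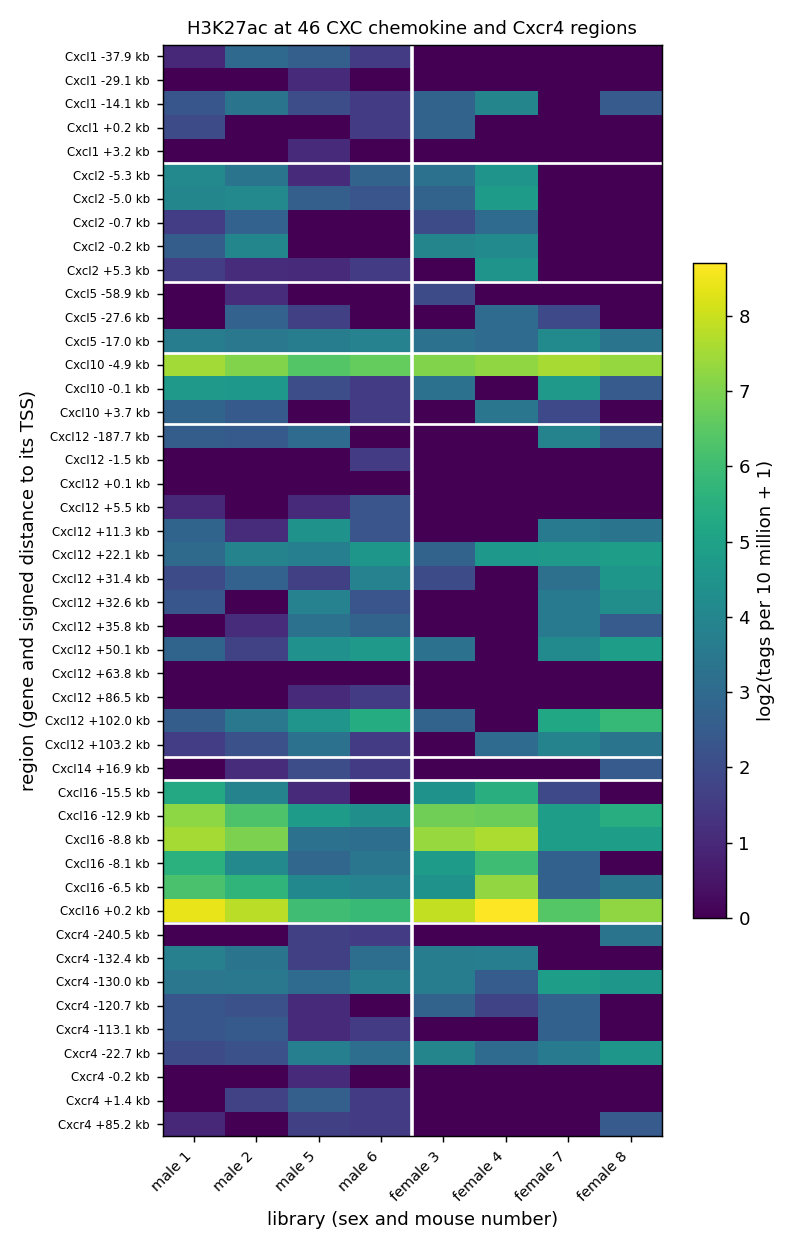
H3K27ac as log2(tags per 10000000 + 1) (colour) at the 46 regions (rows, gene and signed distance to its TSS) in the 8 libraries (columns, sex and mouse number). The Cxcl16 region at the TSS and the Cxcl10 region 4.9 kb before the TSS have the highest means, 197 and 140 tags. Most Cxcl1 and Cxcr4 rows are near 0. Not all Cxcl16 rows are bright: the one 15.5 kb upstream has a mean of 14.8 tags, under the 22.0 of the Cxcl12 region at 102.0 kb.

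The Cxcl16 ligand gene (chromosome 11, 70454389 to 70459984) had its 5 distal regions upstream, 6.5 to 15.5 kb from the TSS, and all rose. The region 8.8 kb upstream (chr11:70468583-70469083, intergenic) held 185, 126, 8.39 and 7.75 tags in males 1, 2, 5 and 6 and 164, 198, 27.9 and 27.8 tags in females 3, 4, 7 and 8. Each value of mice 1 to 4 was at least 126 tags and each of mice 5 to 8 at most 27.9. The authors' deposited table gives this region 3.26 on the log2 scale (SE 0.33, adjusted p = 3.98e-20), and its group values went from 3.09 (vehicle) to 6.39 (IL-33). It has the smallest adjusted p and the largest fold change of the 18 regions.

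The region 12.9 kb upstream (chr11:70472676-70473176) held 148, 75.6, 26.2 and 19.4 tags in the male and 112, 106, 27.9 and 41.8 tags in the female mice, in the same order. It rose by 1.90 (SE 0.32, adjusted p = 2.09e-07) by the authors' deposited table. The farthest region, 15.5 kb upstream (chr11:70475229-70475729), held 36.9, 13.7, 1.05 and 0 tags in the male and 20.5, 43.6, 2.79 and 0 tags in the female mice. This last region was close to 0 in mice 5 to 8 and rose by 3.08 (SE 0.61, adjusted p = 1.59e-05) by the authors' deposited table, from a vehicle group value of 0.45.

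The nearest distal region, 6.5 kb upstream at an annotated transcription end (chr11:70466198-70466698), held 72.9, 50.4, 15.7 and 13.6 tags in the male and 20.5, 155, 5.57 and 9.28 tags in the female mice. Female mouse 4 stood far above the other female mice there. The authors' deposited table gives it 2.21 (SE 0.45, adjusted p = 3.02e-05). The region 8.1 kb upstream (chr11:70467863-70468363) held 5.57 tags or less in female mice 7 and 8, 45.9 tags in male mouse 1 and 62.9 in female mouse 4, and rose by 2.06 (SE 0.52, adjusted p = 0.000972) by the authors' deposited table. In each of the 6 Cxcl16 regions, promoter included, every value of mice 1, 2, 3 and 4 was above every value of mice 5, 6, 7 and 8, and since the labels give no treatment per mouse this order was not tested.

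**Figure D3:**
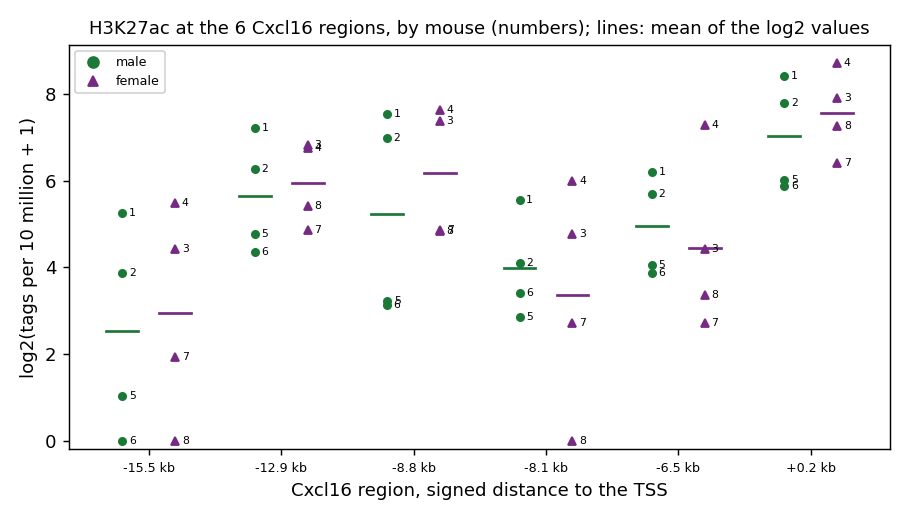
H3K27ac as log2(tags per 10000000 + 1) (y axis) at the 6 Cxcl16 regions (x axis, signed distance to the TSS) in each mouse (number beside the point), males as circles and females as triangles, with lines at the mean log2 value of 4. In each region mice 1, 2, 3 and 4 lie above mice 5, 6, 7 and 8, and males and females overlap.

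Around Cxcl16, 32 further regions within 50000 bp of the gene belonged to 6 other nearest genes, and 13 of them were tested. In the authors' deposited table, 5 of these 13 rose and none fell, 4 of them at Tm4sf5, a tetraspanin-like gene upstream of Cxcl16. The Tm4sf5 region with the smallest adjusted p (chr11:70499915-70500415) stood at 2.89 (SE 0.54, adjusted p = 4.18e-06) by the authors' deposited table. The remaining rise, at the microRNA gene Mir7115 on the other side of Cxcl16, was 0.94 (adjusted p = 0.0104) by the authors' deposited table. Of 3 tested regions at Med11, a Mediator subunit gene, none was called in the authors' deposited table. Which gene a region acts on was not measured.

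Among the neutrophil-attracting ligands, Cxcl2 was the one with a call. Its region 5.3 kb upstream (chr5:90898391-90898891) held 16.0, 9.16, 1.05 and 5.81 tags in males 1, 2, 5 and 6 and 8.80, 21.8, 0 and 0 tags in females 3, 4, 7 and 8. It rose by 1.74 (SE 0.64, adjusted p = 0.039) by the authors' deposited table, on 40 reads over the 8 libraries. The neighbouring region 5.0 kb upstream overlaps it and shares reads, and stood at 1.61 (SE 0.62, adjusted p = 0.0511) by the authors' deposited table. With both merged into the one of higher level, or at an adjusted p under 0.01, Cxcl2 had no call and 1 gene, Cxcl16, was left with a rise.

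Cxcl1, on the same stretch of chromosome 5, had 5 regions of 1 to 25 reads each. The authors' deposited table gives an adjusted p for none of them. The strongest, 14.1 kb upstream in a DNA transposon (chr5:90876901-90877401), held 0 to 14.5 tags and stood at 1.05 (SE 0.66, unadjusted p = 0.112) by the authors' deposited table. Cxcl5 had a single tested region, 17.0 kb upstream (chr5:90742000-90742500). It held 11.98, 10.3, 11.5 and 13.6 tags in the male and 8.80, 7.26, 16.7 and 9.28 tags in the female mice. No value lay outside 7.26 to 16.7 tags, and it stood at -0.29 (SE 0.55, adjusted p = 0.791) by the authors' deposited table.

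Of the interferon-inducible ligands, Cxcl10 (chromosome 5, 92346638 to 92348889) had a strong distal region that was not called. Located 4.9 kb upstream in intron 2 of 10 of an overlapping transcript (chr5:92353539-92354039), it held 180, 131, 82.8 and 98.8 tags in males 1, 2, 5 and 6 and 132, 152, 187 and 158 tags in females 3, 4, 7 and 8. Its mean of 140 tags stood at percentile 96.0 of the 73111 distal regions or regions without a TSS. It had the highest mean of the distal regions of these genes, and among males mice 5 and 6 lay below mice 1 and 2, whereas among females mice 7 and 8 lay above mice 3 and 4. The authors' deposited table gives it 0.29 (SE 0.23, adjusted p = 0.441).

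The CXCR3 ligand genes lie side by side, and most regions that rose there were assigned to Cxcl11, the third of them. Within 50000 bp of Cxcl9, 28 regions belonged to 5 other nearest genes, and of 15 tested ones 9 rose and none fell by the authors' deposited table. Cxcl11 had 7 of them, from 10 tested regions. The Cxcl11 region with the smallest adjusted p (chr5:92368330-92368830, 5.3 kb from its TSS) stood at 2.83 (SE 0.42, adjusted p = 1.24e-09) by the authors' deposited table. A region assigned to Art3, an ADP-ribosyltransferase gene, rose by 1.28 (SE 0.19, adjusted p = 2.4e-09) and 1 assigned to Sdad1 by 1.23 (adjusted p = 0.0384) by the authors' deposited table. Of 13 tested regions of other genes within 50000 bp of Cxcl10 in the authors' deposited table, 9 rose as well, again 7 of them assigned to Cxcl11.

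Cxcl12, the ligand of CXCR4, had 14 regions, and the 9 listed in the authors' deposited table all have a negative log2 fold change there, from -2.15 to -0.57. The region 102.0 kb from the TSS (chr6:117270244-117270744, intergenic) held 4.99, 10.3, 22.0 and 40.7 tags in males 1, 2, 5 and 6 and 5.87, 0, 36.2 and 55.7 tags in females 3, 4, 7 and 8. Mice 5, 6, 7 and 8 were high, each above every value of mice 1, 2, 3 and 4. The authors' deposited table gives it -2.15 (SE 0.50, adjusted p = 0.000363), and its group values went from 4.26 (vehicle) to 1.66 (IL-33).

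A region 50.1 kb from the TSS, in a SINE repeat (chr6:117218394-117218894), held 5.99, 2.29, 19.9 and 25.2 tags in the male and 8.80, 0, 16.7 and 27.8 tags in the female mice. Its order of mice was like that of the farther region, and it stood at -1.84 (SE 0.56, adjusted p = 0.00946) by the authors' deposited table. The third fallen region, 32.6 kb from the TSS (chr6:117200858-117201358), held 3.99, 0, 13.6 and 3.88 tags in the male and 0, 0, 11.2 and 18.6 tags in the female mice. Here mouse 6 lay among the low libraries, and the authors' deposited table gives -1.77 (SE 0.66, adjusted p = 0.0445). These 3 regions held 83, 55 and 27 reads over the 8 libraries. The region of Cxcl12 in the 3′ UTR (chr6:117179577-117180077) stood at -1.46 (adjusted p = 0.109) by the authors' deposited table. Within 50000 bp of the TSS the count of falls was 1 in place of 3.

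Among the marker lists of other cells, the endothelial and border macrophage sums were higher in mice 5 to 8 within each sex. The Cxcl12 region at 102.0 kb had the same split, but not the same order within it. There mouse 6 lay above mouse 5, whereas both sums were higher in mouse 5. At 32.6 kb the split did not hold, as mouse 6 (3.88 tags) lay below mouse 1 (3.99 tags). The oligodendrocyte sum did not, with 239, 208, 267 and 198 tags in males 1, 2, 5 and 6. In females 3, 4, 7 and 8 it was 384, 348, 273 and 288 tags, thus higher in mice 3 and 4. The astrocyte, neuron, monocyte or neutrophil and T or NK cell lists held few tags, as given above. Summed promoter levels of the endothelial list were 68.9, 76.8, 104 and 95 tags in males 1, 2, 5 and 6 and 55.7, 109, 162 and 144 tags in females 3, 4, 7 and 8. Of its 5 genes, 3 (Pecam1, Kdr and Flt1) had promoter reads, whereas the defining markers Cldn5 and Tek had no promoter region. Kdr held 17.0, 25.2, 34.6 and 42.6 tags in the male and 11.7, 21.8, 64.1 and 74.2 tags in the female mice. Pecam1 held 48.9, 44.7, 68.2 and 52.3 tags in the male and 44.0, 87.1, 97.5 and 69.6 tags in the female mice, so mouse 8 lay below mouse 4. Flt1 held 2.99, 6.88, 1.05 and 0 tags in the male mice and none in the female mice, and was thus not higher in mice 5 and 6. The border macrophage list, of which 2 of 6 genes had a promoter region (Mrc1 and Pf4), stood at 49.9, 48.1, 88.1 and 77.5 tags in the male and 58.7, 65.3, 80.8 and 102 tags in the female mice. Mrc1 made up most of it, with 48.9, 43.5, 88.1 and 73.6 tags in the male and 55.7, 65.3, 78.0 and 92.8 in the female mice. Pf4 held 1.0, 4.59, 0 and 3.88 tags in the male and 2.93, 0, 2.79 and 9.28 in the female mice. Pf4 did not follow the order of Mrc1, so this sum rests on 1 gene. The endothelial and border macrophage sums were higher in mice 5 and 6 than in mice 1 and 2, and in mice 7 and 8 than in mice 3 and 4. Their part in the Cxcl12 result was not tested.

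**Figure D4:**
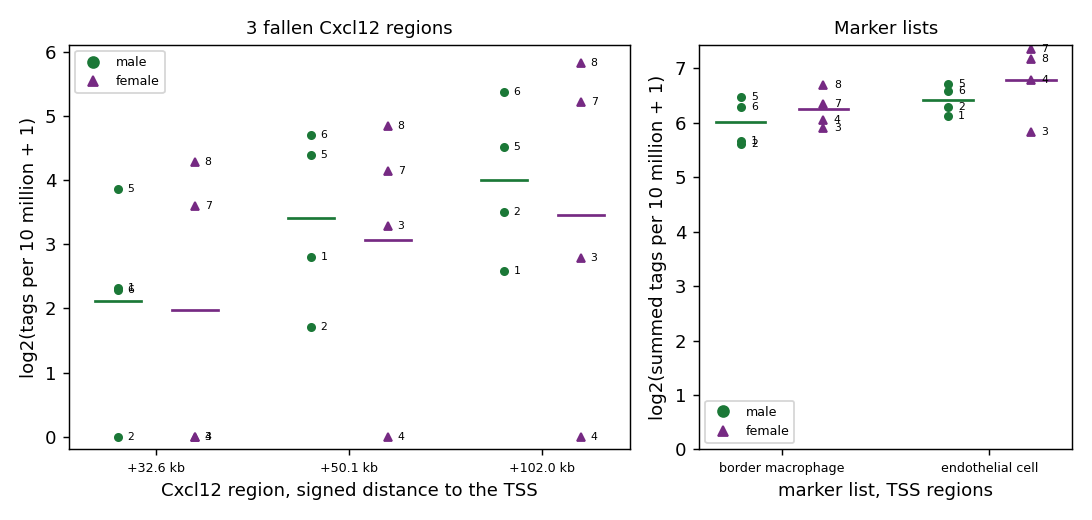
Left, H3K27ac as log2(tags per 10000000 + 1) (y axis) at the 3 Cxcl12 regions that fell in the authors' deposited table, by mouse (numbers). Right, log2 of the summed promoter tags + 1 of the border macrophage and endothelial marker lists. Lines are means of 4 log2 values; at 102.0 kb mice 5, 6, 7 and 8 lie above the others, and within each sex they also have the higher marker sums.

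Cxcr4 itself had no called region. Of its 9 regions, 3 were tested, and the one with the smallest adjusted p, 132.4 kb upstream in a SINE repeat (chr1:128724402-128724902), held 13.0, 9.16, 2.10 and 7.75 tags in males 1, 2, 5 and 6 and 11.7, 12.1, 0 and 0 tags in females 3, 4, 7 and 8. It stood at 1.27 (SE 0.64, adjusted p = 0.162) by the authors' deposited table. The regions 22670 and 130028 bp upstream stood at -0.78 (SE 0.58, adjusted p = 0.398) and -0.57 (SE 0.54, adjusted p = 0.536) by the authors' deposited table. The tested values of this gene thus lay on both sides of 0. A region in a CpG island 1.4 kb into the gene (chr1:128590690-128591190) held 0 to 5.24 tags. At Ackr3, the other CXCL12 receptor gene, 4 of 5 tested regions fell in the authors' deposited table, the one with the smallest adjusted p (chr1:90373168-90373668) at -1.79 (SE 0.34, adjusted p = 4.62e-06).

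Cxcl14 had a single region, 16.9 kb from its TSS (chr13:56279373-56279873), with 6 reads in all libraries and no entry in the comparison. Of the 46 regions, 8 held at most 3 reads over the 8 libraries, which is 17.4% against 6.27% of all regions. Of the 46, 33 are annotated as intergenic, 6 lie in repeats and 1 in a CpG island. By the deposited table's peak names, 10 of the 46 (21.7%) came from the IL-33 peak set alone, 3 (6.52%) from the vehicle set alone and 33 (71.7%) from both, close to the 18.8%, 8.86% and 72.3% of all regions.

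The second comparison set female against male libraries, and no region of these genes was called. With a mean of at least 10 tags, 14 regions were tested among 53348, namely 6 of Cxcl16, 3 of Cxcl12, 2 each of Cxcl10 and Cxcr4 and 1 of Cxcl5. Limma called 0 of them higher and 0 lower in female libraries at an adjusted p under 0.05, where 0.15% and 1.87% of all regions were called. None had an unadjusted p under 0.05 in limma, and edgeR and DESeq2 on whole reads also called 0 (0 at an unadjusted p under 0.05 with either). A missed threshold does not show that the sexes are alike. The spread between mice includes any effect of IL-33, and the headers give the male and female libraries different dates and index designs, so sex and batch cannot be told apart.

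The lowest adjusted p of the 14 was at the Cxcl10 region 4.9 kb upstream, with 123 ± 42.7 tags in male and 157 ± 22.6 tags in female libraries (SD, n = 4 each; difference 0.40 log2 units, SE 0.27; limma, adjusted p = 0.584). At the Cxcl16 promoter the levels were 171 ± 136 tags in male and 223 ± 144 tags in female libraries (SD, n = 4 each; 0.54, SE 0.58; limma, adjusted p = 0.75). With TMM scaling, which moved the median difference of all tested regions from 0.22 to -0.09, the Cxcl16 promoter stood at 0.22. Leaving out 1 library at a time moved it from 0.16 (without male mouse 6 or female mouse 4) to 1.0 (without male mouse 1). At the Cxcl10 promoter they were 13.5 ± 12.7 and 9.63 ± 10.9 tags (SD, n = 4 each; -0.61, SE 1.19; limma, adjusted p = 0.871), and without female mouse 4, which had no read, the difference was 0.26. The spread within a sex was as large as the level itself at several Cxcl16 regions. The largest difference of the 14, 1.04 log2 units (SE 0.76), was at the Cxcr4 region 22.7 kb upstream, with 6.69 ± 4.48 tags in male and 14.1 ± 6.80 tags in female libraries (SD, n = 4 each; limma, adjusted p = 0.612).

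The promoters whose levels followed that of Cxcl16 most closely over the 8 libraries, after the mean of each sex was removed, were those of Plpp1, a lipid phosphatase gene (Pearson r = 0.993), the Toll-like receptor gene Tlr2 (0.988) and Cdc42se1 (0.985), out of 7470 genes with a mean of at least 30 tags. Tlr2 held 250, 180, 76.5 and 52.3 tags in males 1, 2, 5 and 6 and 211, 348, 92.0 and 130 tags in females 3, 4, 7 and 8, so mice 1 to 4 were again high. For the Cxcl2 promoter they were Eef1e1 (0.986), Maip1 (0.981) and Zhx2 (0.980), and for the Cxcl10 promoter Lrpap1 (0.933), 4933430I17Rik (0.925) and Fndc3b (0.921). The 8 libraries differ in treatment, depth and batch, the Cxcl2 and Cxcl10 promoters rest on 30 and 63 reads, and the values are a description.

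Other genes of the CXC system and its relatives were counted from lists. Among CXC ligands and receptors outside the set, 6 of 15 genes had a tested region, and by the authors' deposited table, 3 had rises, 2 had falls and 1 had no call. Besides Cxcl11 and Ackr3, a region of Cxcl13, the B cell-attracting ligand gene, had a log2 group value of 3.76 with IL-33 and is listed at 0 for vehicle (adjusted p = 2.3e-06) by the authors' deposited table, with 6 of 8 regions risen. A region of its receptor gene Cxcr5 rose by 1.47 (SE 0.28, adjusted p = 7.11e-06) by the authors' deposited table. One of Cxcl17 fell by 0.77 (SE 0.29, adjusted p = 0.0392) by the authors' deposited table. In all, 15 of 44 regions of this list rose and 5 fell, or 34.1% and 11.4%, with a median log2 fold change of 0.60.

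CC chemokine genes, the sister family, had 24 rises and no fall among 62 tested regions in the authors' deposited table, or 38.7% risen, with a median log2 fold change of 0.95. Rises were found at 6 of 12 tested genes, and regions of Ccl5, Ccl4 and Ccl11 stood at 2.19, 2.63 and 2.33 (adjusted p = 1.74e-11, 6.26e-10 and 1.56e-09) by the authors' deposited table. No fall among CC chemokines stands beside the 3 falls of Cxcl12, a difference that was not tested.

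Downstream of the receptors, 49 of 304 tested regions rose and 5 fell by the authors' deposited table, or 16.1% and 1.64%, at 17 genes of chemokine receptor signalling, of which 7 had rises alone, 1 falls alone, 2 had both and 7 no call. Of 11 tested regions of Pik3r5, a regulatory subunit of PI3-kinase gamma, 1 rose, by 2.75 (SE 0.25, adjusted p = 5.78e-24) by the authors' deposited table. At Prex1, a Rac activator gene, 5 of 52 tested regions rose, the one with the smallest adjusted p by 2.71 (SE 0.43, adjusted p = 2.77e-08). At Pik3cg, the catalytic subunit gene, 15 of 25 regions rose, the one with the smallest adjusted p by 4.52 (SE 0.50, adjusted p = 5.6e-17), according to the authors' deposited table. At Rgs1, which encodes a brake on G protein signalling, 2 of 14 tested regions fell, the one with the smallest adjusted p at -1.47 (SE 0.34, adjusted p = 0.000373) by the authors' deposited table. Elmo1, an engulfment and migration adaptor gene, had 13 rises and 2 falls among 82 tested regions, with a region at -0.91 (SE 0.29, adjusted p = 0.0124), by the authors' deposited table.

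Of 11 tested genes for transcription factors and inhibitors known to act on CXC chemokine genes, 5 had rises alone, 3 had both and 3 no call by the authors' deposited table. Of their 139 regions, 35 rose and 20 fell, or 25.2% and 14.4%, where 10.2% and 7.99% of all tested regions did. Nfkb1, which encodes the NF-kB subunit p105/p50, had the smallest adjusted p of the list in both directions, with 4 rises and 11 falls among 30 regions by the authors' deposited table. One of its regions (chr3:135670550-135671050) stood at 4.21 (SE 0.58, adjusted p = 7.39e-11) and another (chr3:135603099-135603599) at -1.38 (SE 0.24, adjusted p = 6.18e-07) by the authors' deposited table. Nfkbia, the NF-kB inhibitor gene, had 9 rises among 13 regions, the one with the smallest adjusted p at 2.80 (SE 0.46, adjusted p = 5.45e-08) by the authors' deposited table. The interferon regulatory gene Irf1 had 1 rise and 4 falls among 7, with a region at -1.59 (SE 0.40, adjusted p = 0.00122) by the authors' deposited table. Irf8, which acts in microglial and myeloid development, had 4 rises and 5 falls among 33, with a region at 1.70 (SE 0.31, adjusted p = 1.86e-06) by the authors' deposited table. Proteases that shed or trim CXC chemokines had no call among 17 tested regions at 4 genes in the authors' deposited table, among them Adam10, which sheds CXCL16, and Adam17.

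**Figure D5:**
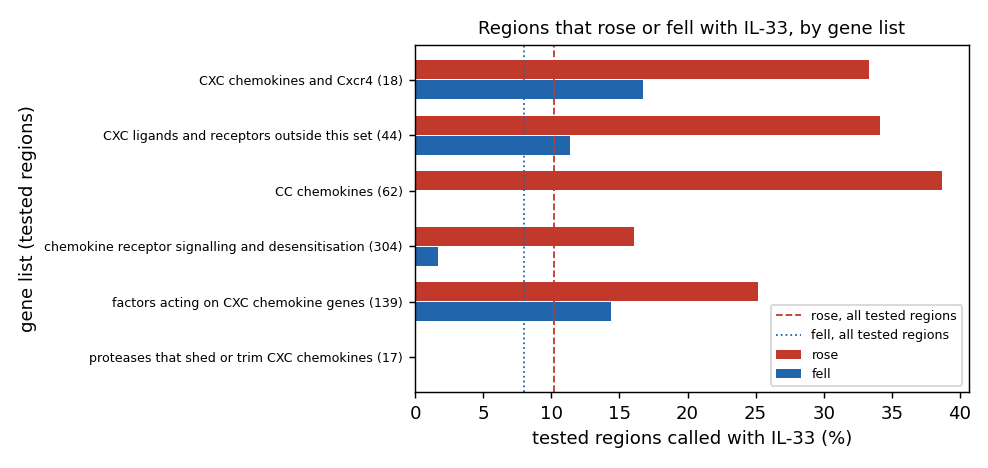
Share of tested regions that rose (red) or fell (blue) with IL-33 at an adjusted p under 0.05 in the authors' deposited table (x axis, percent), for each gene list with its number of tested regions (y axis). Dashed and dotted lines mark the 10.2% and 7.99% of all tested regions; the CXC set has 33.3% and 16.7%, and the CC chemokines 38.7% and none.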

How the data were processed

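The submitters' processing notes name Bowtie2, HOMER and build mm10 (GRCm38), without versions. The authors deposited a normalised signal per region and library, scaled to 10000000 tags per the file headers. Scaling back with each header's total gave whole reads for 100% of values, within 0.01 of a read. The second deposited table holds, per the file headers, a log2 fold change and log2 group values, scores (mean level, standard error, test statistic) and the p-value, raw and adjusted. Neither its tool nor the mice of each group are stated in what was used here. Its 55386 regions were joined by region ID, and all were found in the tag table. The difference between its group values correlated at 0.979 with its log2 fold change across regions, so positive values mean higher with IL-33. Regions without an adjusted p have a mean level of at most 2.73. Inputs were not analysed here.

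Sexes were compared with limma 3.58.1 (trend) on log2(tags + 1) over 53348 regions with a mean of at least 10 tags, with Benjamini-Hochberg adjustment over all of them. Alternatives used edgeR 4.0.16 and DESeq2 1.42.0, other pseudocounts, filters and scalings, and left out each mouse. The limma and edgeR fits, but not DESeq2, were tested on simulated counts without any effect of treatment or batch. Limma recovered 60% of 4-fold and 95% of 8-fold changes, with 0 false calls. EdgeR recovered 75% and 98%, with 9 false calls. Within a sex, the chi-square over its degrees of freedom was 1.77 to 7.02 for each pair of libraries, above sampling noise. Counting limits cover counting error only. All members are named. For each, the regions with the smallest adjusted p in each direction and the strongest promoter and distal regions are given, and for each list the 3 genes with the smallest adjusted p among rises and the 2 among falls. Members and lists were chosen with earlier results of these data known. The windows of 50000 bp around genes, and the values for single marker genes and single Cxcl12 and Cxcl16 regions beyond that rule, were chosen after values were seen. Of the 28 symbols of the signalling list, 2 are older names of other entries.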

Additional observations from a re-analysis of the deposited data

Results flagged for a closer look

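Of 28 groups of 4 libraries checked at the 14 regions with a mean of at least 10 tags, 2 held a library far from the others, and chance alone flags about 1 in 20. At the Cxcl16 region 6.5 kb upstream, female mouse 4 had 155 tags while the other female mice had 5.57, 9.28 and 20.5. At the Cxcl12 region 22.1 kb from the TSS, female mouse 3 had 5.87 tags while the other female mice had 24.2, 25.1 and 27.8. The cause was not tested.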

How the results depend on the processing

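The 6 rises and 3 falls rest on the authors' deposited table. Genes with a rise numbered 1 in place of 2 at an adjusted p under 0.01 and 1 with overlapping regions merged, since the Cxcl2 call was lost. Falls numbered 1 within 50000 bp of the TSS and 5 at an unadjusted p under 0.05 over all listed regions, where regions without an adjusted p enter. Other counts stayed within 1.5 times under the alternatives run. In the sex comparison, calls stayed at 0 in both directions under every scaling, filter, pseudocount and tool run, and without any 1 replicate (0 to 0). At the Cxcl10 promoter the female minus male difference turned from -0.61 to 0.26 without female mouse 4, and leaving out male mouse 5 or 6 or female mouse 3, 4 or 8 gave -1.18 to 0.26. Without male mouse 1 or 2 or female mouse 7, the 3 with high values, its mean fell under 10 tags and it was not tested. No paired analysis was possible because male and female libraries share no mouse number and the inputs, which share numbers with the male libraries, were not analysed here. Depth limits the set: the Cxcl1, Cxcl12 and Cxcr4 promoter regions and the Cxcl14 region hold at most 6 reads each over the 8 libraries, and a change there was not detectable.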
